A study of Homo sapiens with 6 samples.

Results

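Messenger RNA of BCAS1 and of 6 genes that surround it in band 20q13 was followed in MDA-MB-453 cells after knockdown of tRF-1-Ser. The group consisted of BCAS1, ZNF217, CYP24A1, PFDN4, TSHZ2, DOK5 and BCAS4, taken by gene symbol, and it made up 7 of the 36517 genes in the count table. All of them were found. BCAS1 was chosen by its measured fold change between these same libraries, and its neighbours for their position, so the values of BCAS1 are given as a description without a test. The question was whether its rise was local or was shared along 20q13.

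MDA-MB-453 is an established human breast cancer cell line that lacks the oestrogen receptor and expresses ERBB2. All 6 libraries came from these cells carrying a lentivirus, and the paper describes the sequenced cells as stable knockdown cells and their controls. The 3 control libraries (lv_con) held a negative-control hairpin and the 3 shtRF libraries (lv_shtRF) held a hairpin against tRF-1-Ser. This target is a fragment cut from the trailer of a serine tRNA precursor. RNA was labelled as taken on day 3 in every library, and the sample titles do not say from what that day was counted. The methods speak of biological replicates without saying whether these were separate transductions or dishes of the same transduced cells, so p-values measure the spread between these libraries. The hairpin's target is a small RNA that mRNA libraries do not measure, and 1 hairpin was used, so its own effects and those of the knockdown cannot be told apart.

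Band 20q13 is among the chromosome segments most often gained in breast tumours, and several of its genes were first named for that gain. BCAS1 (breast carcinoma amplified sequence 1) encodes a protein known mainly from the brain, where it marks oligodendrocytes that are beginning to form myelin. ZNF217, a zinc finger protein that recruits corepressors to DNA, is regarded as a driver of the amplicon, and CYP24A1 is the mitochondrial hydroxylase that inactivates vitamin D hormone.

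Total counts ran from 63541413 to 78917459 per library. Principal component 1 held 76.4% of the variance, and replicates of a group correlated at 0.997 or above. Of 19628 genes that passed the filter on low counts, 7750 (39.5%) differed between the groups at an adjusted p under 0.05 (edgeR quasi-likelihood test, Benjamini-Hochberg adjustment), with 4046 higher (20.6%) and 3704 lower (18.9%) in shtRF. The groups did not overlap in 9551 genes (48.7%). KRT8, a keratin of luminal epithelium, stood at 1557 CPM (counts scaled to a library of 1000000) in control and 2691 in shtRF, and ERBB2 at 406 and 356. Of the basal, mesenchymal and stromal markers, 10 were listed and 5 tested. Of those tested 1 was higher (20%) and 2 lower (40%), with a median log2 fold change of -0.54. With at least 1 CPM required in 3 libraries, 3 markers were tested, so not all were low. VIM, DCN, COL3A1, KRT14 and ESR1 lay under 0.3 CPM in both groups and LUM was not listed, although COL1A1 stood at 32.2 CPM in control and 20.9 in shtRF. The summed level of the 10 basal, mesenchymal and stromal markers listed ran from 33.8 to 40.5 CPM in control and from 25.6 to 26.2 CPM in shtRF, and its part in the results was not tested.

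The sequences below show what lies in and beside BCAS1. MIR4756, a microRNA gene on the same strand, sits inside BCAS1 at chr20:54068408-54068485 with none of the BCAS1 exons under it, so it is intronic. Its hairpin and its mature products (RefSeq, GRCh38.p14) follow, with the seed, bases 2 to 8 of each mature RNA, in capitals.
MIR4756 hairpin: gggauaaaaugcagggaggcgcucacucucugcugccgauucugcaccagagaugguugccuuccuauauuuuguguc
hsa-miR-4756-5p: cAGGGAGGcgcucacucucugcu
hsa-miR-4756-3p: cCAGAGAUgguugccuuccuau
The arms carried different seeds. Libraries of mRNA do not measure mature microRNA, so only reads over the hairpin locus bear on it.

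Promoter windows of 300 bases in the RefSeq table matched 5 of the 7 genes, BCAS1 and CYP24A1 not being among them. ZNF217 (chr20:53593790-53594089, minus strand), PFDN4 (chr20:54207837-54208136, plus strand) and DOK5 (chr20:54475343-54475642, plus strand) are shown because these neighbours flank BCAS1 on either side and ranged in these cells from well expressed to nearly silent. Each CG dinucleotide, searched as the letters CG, which read the same on both strands, is in capitals.
ZNF217 promoter: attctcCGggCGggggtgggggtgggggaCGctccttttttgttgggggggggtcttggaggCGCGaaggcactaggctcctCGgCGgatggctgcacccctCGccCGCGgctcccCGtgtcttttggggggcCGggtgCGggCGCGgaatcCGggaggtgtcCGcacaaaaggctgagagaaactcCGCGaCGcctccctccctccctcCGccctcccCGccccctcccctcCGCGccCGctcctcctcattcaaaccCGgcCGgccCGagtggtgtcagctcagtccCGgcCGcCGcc
PFDN4 promoter: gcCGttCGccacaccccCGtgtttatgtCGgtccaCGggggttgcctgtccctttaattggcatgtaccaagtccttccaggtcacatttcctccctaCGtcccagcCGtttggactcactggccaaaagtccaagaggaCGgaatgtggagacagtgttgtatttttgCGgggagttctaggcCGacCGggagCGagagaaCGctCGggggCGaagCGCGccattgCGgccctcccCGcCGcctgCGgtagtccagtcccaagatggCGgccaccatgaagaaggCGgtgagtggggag
DOK5 promoter: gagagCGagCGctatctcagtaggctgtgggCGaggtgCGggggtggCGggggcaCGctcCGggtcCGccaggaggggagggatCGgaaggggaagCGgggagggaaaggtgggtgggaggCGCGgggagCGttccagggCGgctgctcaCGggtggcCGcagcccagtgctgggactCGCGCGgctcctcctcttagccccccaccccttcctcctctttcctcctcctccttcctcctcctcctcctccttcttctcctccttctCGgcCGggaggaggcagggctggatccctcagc
The ZNF217 window held 31 CG, the PFDN4 window 23 and the DOK5 window 21, against a median of 14 over the 35116 windows of the table, of which 96.0% held at least 1. All of them were therefore richer in CG than the median window, the silent DOK5 included. TSHZ2 and BCAS4 had more than 1 window each, with 28 and 4 CG for TSHZ2 and 19 and 39 CG for BCAS4.

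CYP24A1 was among the vitamin D genes that the study measured by PCR, and its primers show which exons that assay read. In transcript CYP24A1-201 of GENCODE release 29 (GRCh38) the forward primer lay in exon 10 (chr20:54157489-54157508) and the reverse primer ran across the junction of exon 11 (chr20:54157169-54157186) and exon 12 (chr20:54154758-54154761). Its 4 bases in exon 12 are in capitals.
CYP24A1 forward: acgttggcttcaggagaagg
CYP24A1 reverse: CCATctgaggcgtattatcgct
The product was 246 bases long in the spliced transcript, and the exons it spans are among those to which the counts of CYP24A1 given further on could fall.

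BCAS1 rose about 16-fold in shtRF, from a modest level to one of the higher ones within 10 Mb. The gene (chr20:53936777-54070594, minus strand, 4 annotated transcripts with up to 12 exons) had 422, 670 and 513 counts in control replicates 1, 2 and 3, and 8187, 8381 and 7532 counts in shtRF replicates 1, 2 and 3. Every shtRF library lay far above every control library, and the shtRF libraries lay closer to each other relative to their mean. Scaled by library size, the control values were 6.49, 8.87 and 6.43 CPM (mean 7.26 ± 1.39 SD, n = 3) and the shtRF values were 117, 122 and 121 CPM (mean 120.0 ± 3.01 SD, n = 3). The log2 fold change was 4.04 ± 0.09 (SE), a 16.5-fold difference. BCAS1 was chosen for this difference, so the SE describes the spread between these libraries and tests nothing. In bulk RNA, more cells with BCAS1 and more BCAS1 RNA per cell cannot be told apart.

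Per length of exon, BCAS1 went from 0.904 to 14.4 RPKM (CPM per kilobase of exon). Among the 326 genes listed within 10 Mb of it, itself included, it ranked 144 by mean RPKM in control and 39 in shtRF. Over the whole table, 63.2% of genes lay below it in control and 91.8% in shtRF. Its log2 fold change was the largest of the 500 tested genes on chromosome 20, the next being 2.63 for RP3-453C12.15, and ranked 11 among all tested genes. Of the exonic bases of BCAS1, 6.72% also belonged to exons of AC005220.3, an antisense gene described further on.

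**Figure D1:**
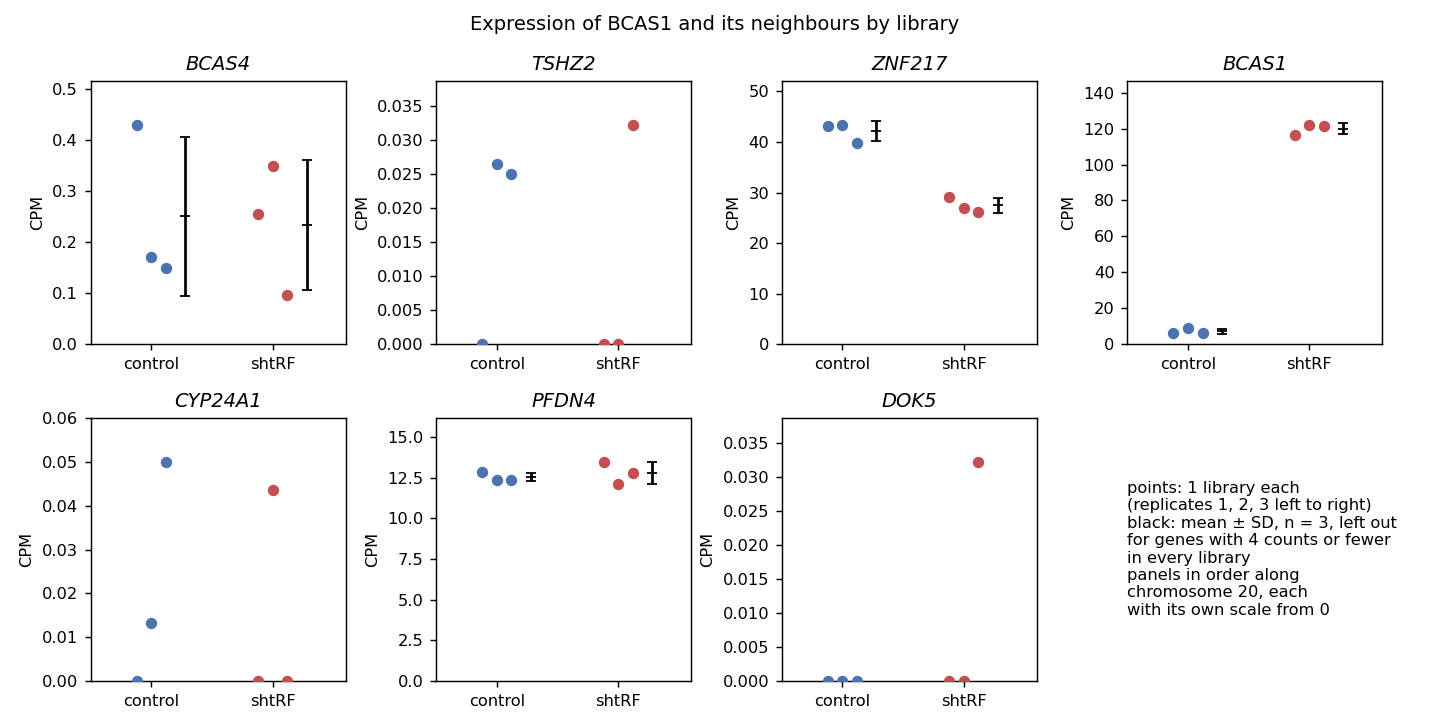
Level in CPM (y axis of each panel, starting at 0) of the 7 genes in each library, in order along chromosome 20, with points for the control and shtRF libraries and black bars for the mean ± SD (n = 3), which are left out where no library had more than 4 counts. BCAS1 stands at 6.43 to 8.87 CPM in control and 117 to 122 in shtRF, ZNF217 is lower in all shtRF libraries, and the groups of the other genes overlap.

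ZNF217, the neighbour with the highest level in CPM, fell. It lies 327 kb from BCAS1 toward the centromere (chr20:53567065-53609907, minus strand) and had 2807, 3277 and 3183 counts in control and 2041, 1857 and 1627 counts in shtRF. All control libraries lay above all shtRF libraries. Its level was 42.1 ± 1.96 CPM (SD, n = 3) in control and 27.4 ± 1.45 CPM (SD, n = 3) in shtRF. It fell by 0.62 ± 0.06 (SE) on the log2 scale (95% confidence interval from -0.75 to -0.49, adjusted p = 5.90e-08, edgeR quasi-likelihood test). ZNF217 was the only one of the 3 neighbours tested that changed, and 0 were higher, also at an unadjusted p under 0.05 and with DESeq2 or limma. Over all tested genes 20.6% were higher and 18.9% lower, so 1 lower gene among 3 is a description only.

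Both genes exchanged rank in every library, which mostly restates the rise by which BCAS1 was chosen. The ratio of BCAS1 to ZNF217, in RPKM, was 0.114, 0.154 and 0.122 in control and 3.03, 3.41 and 3.50 in shtRF. BCAS1 was thus the weaker gene of the pair in all control libraries and the stronger in all shtRF libraries. A plus-strand gene that overlaps the end of ZNF217 (chr20:53552770-53575863) had 198, 220 and 251 counts in control and 159, 139 and 122 in shtRF. It also fell, by 0.54 ± 0.15 (SE) on the log2 scale (adjusted p = 0.00721). Of its exonic bases 5.48% were shared with ZNF217, on the other strand.

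PFDN4, a subunit of prefoldin, the complex that hands unfolded actin and tubulin to the cytosolic chaperonin, was steady. It lies 137 kb from BCAS1 toward the telomere (chr20:54207847-54228052, plus strand) and had 835, 936 and 988 counts in control and 948, 833 and 795 counts in shtRF. Its level was 12.5 ± 0.26 CPM (SD, n = 3) in control and 12.8 ± 0.68 CPM (SD, n = 3) in shtRF, and the groups overlapped. The difference of 0.03 ± 0.08 (SE) on the log2 scale did not pass the test (adjusted p = 0.791, edgeR), with a 95% confidence interval from -0.14 to 0.20. The RPKM ratio of BCAS1 to PFDN4 was 0.122, 0.173 and 0.125 in control and 2.08, 2.43 and 2.29 in shtRF. With PFDN4 steady, this ratio also restates the rise by which BCAS1 was chosen.

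CYP24A1, the next gene on the telomere side of BCAS1, was almost silent. It begins 82.9 kb away (chr20:54153449-54173973, minus strand) and had 0, 1 and 4 counts in control and 0, 3 and 0 counts in shtRF. Both groups overlapped at or near 0, and the gene was too low for the test. A count of 3 corresponded to between 0.0376 and 0.0484 CPM in these libraries, so a change below that level was not detectable at this depth. This limit covers counting error only.

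TSHZ2 and DOK5 were just as low. TSHZ2, a teashirt zinc finger transcription factor 441 kb toward the centromere (chr20:52972407-53495330, plus strand), had 0, 2 and 2 counts in control and 0, 0 and 2 in shtRF. DOK5, a docking adaptor of receptor tyrosine kinases 405 kb toward the telomere (chr20:54475597-54651171, plus strand), had 0 counts in all control libraries and 0, 0 and 2 in shtRF. Neither was tested. BCAS1 therefore rose between neighbours of which CYP24A1, TSHZ2 and DOK5 never passed 4 counts in any library.

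BCAS4 lies farther off, 3.05 Mb toward the centromere (chr20:50794894-50882676, plus strand). Its gene is known from a fusion with BCAS3 in amplified breast cancer cells, and its protein resembles a subunit of BLOC-1, a complex for lysosome-related organelles. It had 28, 13 and 12 counts in control and 18, 24 and 6 in shtRF. The groups overlapped widely, and the difference of -0.06 ± 0.55 (SE) on the log2 scale did not pass the test (adjusted p = 0.943, edgeR). Its 95% confidence interval ran from -1.20 to 1.07, so a change of up to about 2-fold either way could not be seen at this depth.

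Inside BCAS1 itself, the reads of its antisense gene went with it. AC005220.3 (chr20:53940160-53942508, plus strand) shared 62.2% of its exonic bases with BCAS1 exons on the opposite strand. It had 0, 2 and 0 counts in control and 15, 5 and 14 in shtRF, at least 4.15-fold higher when control is set at 3 counts per library. Whether counting used strand is not given in the sources used here, so the reads of both genes cannot be told apart. The MIR4756 hairpin shown above had 0 counts in all control libraries and 1, 4 and 2 in shtRF, too few for the test.

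The genes around BCAS1 were then taken by distance. Within 1 Mb, 9 other genes were listed and 3 tested, of which 0 were higher and 2 lower at an adjusted p under 0.05, where 20.6% and 18.9% of all tested genes were. With 3 genes this is a description. These were ZNF217 and the plus-strand gene that overlaps it, and at an unadjusted p under 0.05 or with DESeq2 or limma the counts were again 0 and 2. With no filter on low counts AC005220.3 became testable and was called higher (adjusted p = 0.00516, edgeR), which makes 1 higher. It was also called when control 1, 2 or 3 or shtRF 2 was left out (adjusted p from 0.00226 to 0.0167, edgeR). It passes a filter only through its shtRF libraries and shares most of its exonic bases with BCAS1, so these calls are given without weight. The summed level within 1 Mb without BCAS1 was 59.2, 58.8 and 55.6 CPM in control and 45.1, 41.5 and 41.4 CPM in shtRF, and most of it was ZNF217 and PFDN4.

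Within 5 Mb, 74 of 122 other listed genes were tested, with 13 higher and 14 lower (36.5% called) and a median log2 fold change of 0.01. Within 10 Mb, 191 of 325 were tested, with 42 higher and 31 lower (38.2% called) and a median of 0.02, against a median under 0.01 from 0 over all tested genes. The shares of genes called lay near the 39.5% over all tested genes. On the whole chromosome 20 without BCAS1, 110 of 499 tested genes were higher and 95 lower. The summed level within 10 Mb without BCAS1 was 8350, 8155 and 8332 CPM in control and 8615, 8735 and 8754 CPM in shtRF, and the share of BCAS1 in the reads of that window went from 0.0776%, 0.109% and 0.0771% to 1.33%, 1.38% and 1.37%.

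**Figure D2:**
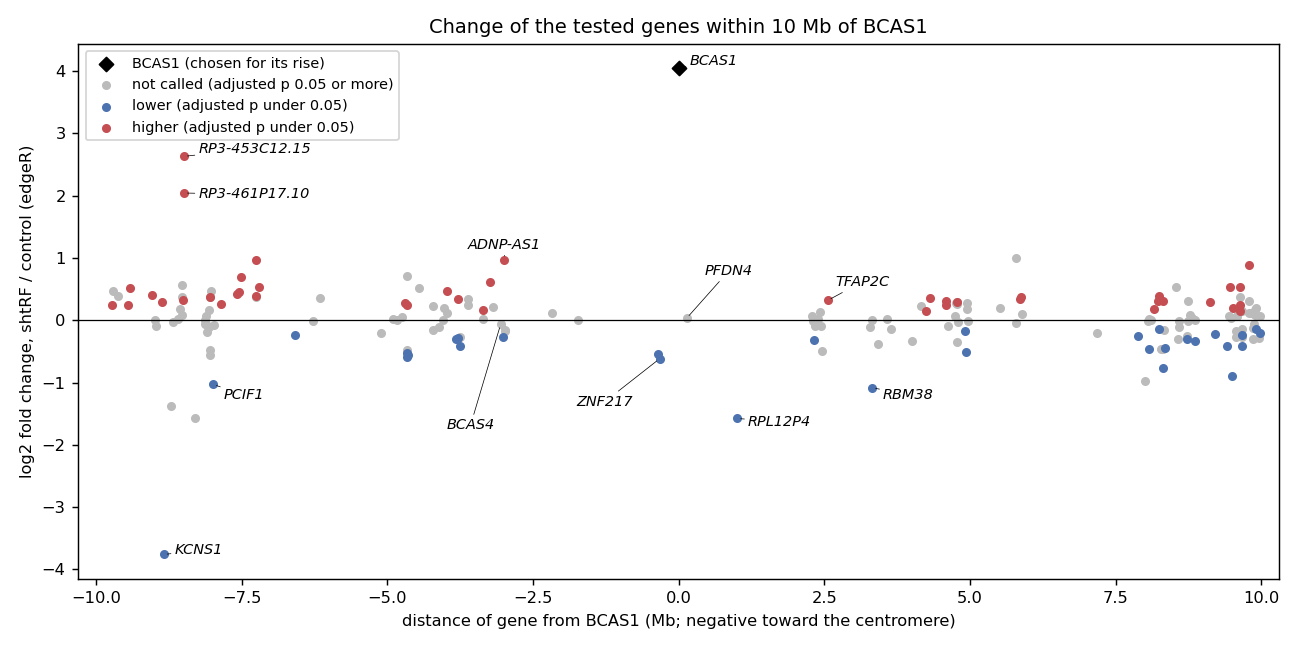
Log2 fold change of shtRF over control (y axis) of each gene tested within 10 Mb of BCAS1. The x axis gives its distance from BCAS1 in Mb, negative toward the centromere. Colours mark higher, lower and not called at an adjusted p of 0.05 (edgeR). A black diamond marks BCAS1, which was in the same fit but is shown without its call because it was chosen for its rise. BCAS1 stands at 4.04 and the next highest gene, RP3-453C12.15, at 2.63. The genes without BCAS1 had a median of 0.02. Called genes past 2-fold besides were RP3-461P17.10 (2.04), KCNS1 (-3.76), RPL12P4 (-1.58), RBM38 (-1.08) and PCIF1 (-1.03). ZNF217 lies below the line at -0.62 and PFDN4 on it at 0.03.

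By distance, the genes nearest to BCAS1 were few. Up to 1 Mb toward the centromere 2 of 2 tested genes were lower, with a median log2 fold change of -0.58, and up to 1 Mb toward the telomere PFDN4 was the 1 gene tested. From 5 to 1 Mb toward the centromere, 7 of 36 tested genes were higher and 7 lower, and from 1 to 5 Mb toward the telomere 6 of 35 were higher and 5 lower. From 5 to 10 Mb toward the telomere 13 of 70 were higher and 14 lower, and the medians of these bins were 0.01 to 0.02. From 10 to 5 Mb toward the centromere 16 of 47 were higher (34.0%) and 3 lower (6.38%), with a median log2 fold change of 0.24, where 20.6% of all tested genes were higher and 18.9% lower. That bin was singled out after its values were seen and was not tested.

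The nearest genes that were called higher lay megabases away. ADNP-AS1, an antisense gene to ADNP 2.99 Mb toward the centromere, had 142, 153 and 136 counts in control and 268, 262 and 246 in shtRF (log2 fold change 0.97, adjusted p = 1.80e-05). TFAP2C, a transcription factor of luminal breast cells 2.56 Mb toward the telomere, had 1245, 1306 and 1703 counts in control and 1730, 1536 and 1558 in shtRF (log2 fold change 0.32, adjusted p = 0.00261), so its raw counts overlapped between the groups. Scaled by library size its control values of 19.1, 17.3 and 21.3 CPM lay below its shtRF values of 24.6, 22.4 and 25.1 CPM. On the telomere side the nearest lower gene was RPL12P4, just over 1 Mb away, with 46, 56 and 36 counts in control and 10, 14 and 18 in shtRF. It is a pseudogene of the ribosomal protein gene RPL12 and could share reads with it, so its fall by 1.58 on the log2 scale (adjusted p = 0.00411) is uncertain.

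Changes of more than 2-fold were few within 10 Mb of BCAS1, as they were over all tested genes. Of the 191 genes tested there, 2 were over 2-fold higher and 4 over 2-fold lower. Over all tested genes 2.66% and 3.11% were, so these small counts are a description only. PCIF1, the enzyme that methylates cap-adjacent adenosine in mRNA, had 1518, 1854 and 1697 counts in control and 837, 731 and 700 in shtRF, without overlap, and fell by 1.03 ± 0.08 (SE) on the log2 scale (adjusted p = 8.31e-10). RBM38, an RNA-binding protein and p53 target, had 335, 296 and 290 counts in control and 149, 154 and 99 in shtRF and fell by 1.08 ± 0.17 (SE) on the log2 scale (adjusted p = 2.00e-05), with 12.6% of its exonic bases shared with RP4-800J21.3.

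RP3-461P17.10, between 5 and 10 Mb away toward the centromere, had 50, 30 and 77 counts in control and 249, 179 and 164 in shtRF and rose by 2.04 ± 0.25 (SE) on the log2 scale (adjusted p = 6.84e-07). It shared 34.7% of its exonic bases with RP3-453C12.15 on the other strand, the second gene over 2-fold higher, so that their reads may have been counted for both. The remaining genes past 2-fold were KCNS1, at -3.76 on the log2 scale, and RPL12P4, both under a mean of 1 CPM. None of these genes lay within 1 Mb of BCAS1.

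Genes of like pattern to BCAS1 were sought on all chromosomes, chromosome 20 included. Likeness was measured as the root mean square distance of log2(CPM + 0.5) values, set to the control mean, over the 6 libraries and 13188 genes with a mean of at least 2 CPM, and no test was made. MAGEC1, a cancer-testis antigen on the X chromosome, was nearest at a distance of 0.186, with 4, 3 and 2 counts in control and 519, 525 and 604 in shtRF. Its nearness rests on the 0.5 CPM added to a control level of 0.0421 CPM, since its fitted log2 fold change was 7.60 against 4.04 for BCAS1. Then came RFTN1, a lipid raft protein, at 0.727 and KRT4, a keratin of stratified mucosa, at 0.749. RFTN1 had 167, 184 and 190 counts in control and 1598, 1511 and 1437 in shtRF, and KRT4 had 115, 111 and 105 against 977, 1037 and 989.

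MUC19, a gel-forming mucin, followed at a distance of 0.801 with 3.05 CPM in control and 25.9 CPM in shtRF, and ANKRD35 at 0.819 with 1.80 and 16.3 CPM. The fitted log2 fold changes of RFTN1, KRT4, MUC19 and ANKRD35 were 3.09 to 3.31. In each of these genes all shtRF libraries lay above all control libraries, which the choice by likeness to BCAS1 brings about. None of the 5 genes lay on chromosome 20, which held only 500 of the 19628 tested genes, so this is a description.

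**Figure D3:**
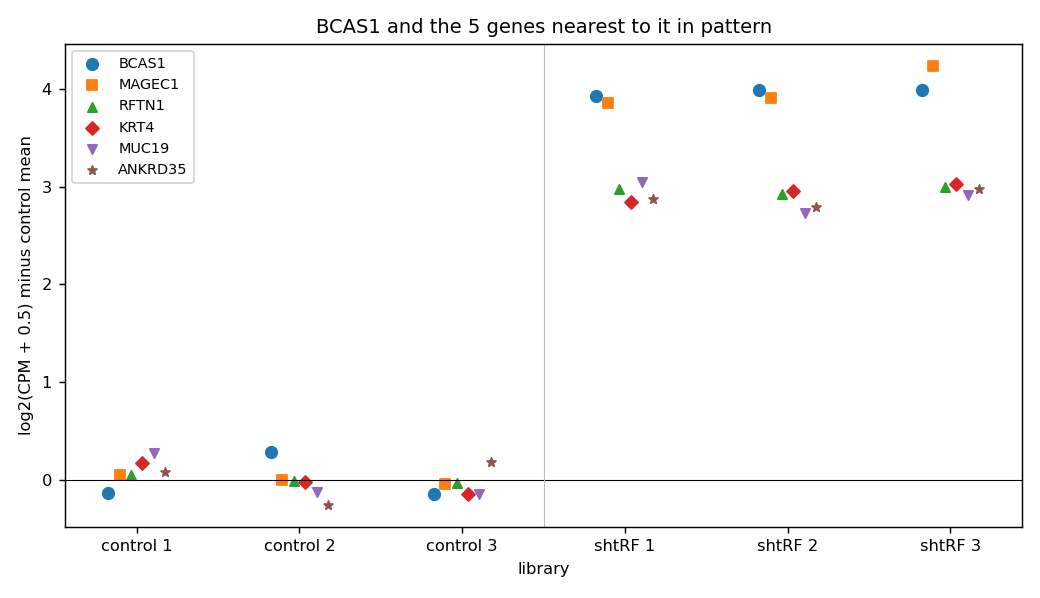
Log2(CPM + 0.5) minus the control mean (y axis) in each of the 6 libraries (x axis) for BCAS1 and the 5 genes nearest to it in pattern, 1 symbol per gene. In the shtRF libraries MAGEC1 lies near BCAS1, owing to the 0.5 CPM added to its very low control level (fitted log2 fold change 7.60), and the other genes lie about 1 log2 unit lower.

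The genes known to work with each neighbour were taken as lists. Their counts are to be read against the 20.6% higher and 18.9% lower of all tested genes. The share of all genes called rose from 39.5% to 49.2% when at least 1 CPM in 3 libraries was required. All ZNF217 partners and all prefoldin and chaperonin genes passed that filter, so the first background is low for them. Of the 14 partners of ZNF217 in CoREST and CtBP corepressor complexes, all tested, 9 were lower (64.3%) and 2 higher, and the median log2 fold change was -0.30. HMG20B, a CoREST component, went from 431 to 291 CPM and fell by 0.56 on the log2 scale (adjusted p = 8.91e-08), and the deacetylase HDAC1 went from 119 to 90.2 CPM and fell by 0.41 (adjusted p = 1.17e-06). PHF21A, which reads unmethylated histone H3, fell by 0.39 (adjusted p = 6.38e-06). The corepressor CTBP2 rose by 0.41 (adjusted p = 1.44e-06), with 34.7% of its exonic bases shared with another gene. KDM1A, the demethylase of the complex, had a log2 fold change of -0.14 that did not pass the test (adjusted p = 0.084, and 0.047 with a replicate block, where 10 partners were lower). It was called lower without control 1 as well (adjusted p = 0.0363, edgeR). The same held with upper quartile scaling (adjusted p = 0.0301, edgeR) and with at least 1 CPM in 3 libraries (adjusted p = 0.0411, edgeR). With limma it was also called lower (adjusted p = 0.0481).

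Around CYP24A1, the genes of vitamin D reception and metabolism were counted next. Of 12 genes listed, 9 were tested, 0 were higher and 1 lower, with a median log2 fold change of -0.10. At an unadjusted p under 0.05 edgeR gave 1 higher and 2 lower. With DESeq2 1 was lower, with upper quartile scaling 2, without shtRF 1 also 2, and without control 3 there were 3. The gene that fell was DHCR7, which draws the vitamin D precursor off into cholesterol. It had 35.8 CPM in control and 27.5 CPM in shtRF and fell by 0.38 on the log2 scale (adjusted p = 6.03e-05). VDR, the vitamin D receptor, stood at 58.7 CPM in control and 64.4 in shtRF (log2 fold change 0.14, adjusted p = 0.061). The activating hydroxylase CYP27B1 stood at 4.47 and 4.25 CPM (adjusted p = 0.693), and neither passed the test. LRP2, an uptake receptor for carried vitamin D, and CYP2R1, the liver hydroxylase, had log2 fold changes of -0.67 and -0.18 that did not pass either, although LRP2 was called lower without control 3 (adjusted p = 0.0296, edgeR) or without shtRF 1 (adjusted p = 0.0465, edgeR).

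Around PFDN4, 6 of 17 prefoldin and chaperonin genes, PFDN4 included, were lower (35.3%) and 0 higher. The number higher was 1 at an unadjusted p under 0.05 with edgeR and 0 with DESeq2. It was 1 with a replicate block and 2 without control 3. The median log2 fold change was -0.07. The largest falls were in chaperonin subunits. CCT2 fell by 0.37 on the log2 scale (adjusted p = 3.49e-05, edgeR), CCT8 by 0.30, TCP1 by 0.31 and CCT6A by 0.30. TCP1 shared 11.1% of its exonic bases with another gene. Of the prefoldin subunits PFDN5 also fell, by 0.27 on the log2 scale (adjusted p = 0.00386), while PFDN4 itself did not pass the test.

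Around DOK5, 13 of 14 listed DOK and RET pathway genes were matched and 8 tested, of which 2 were higher and 1 lower (median log2 fold change 0.03). With upper quartile scaling these became 1 higher and 3 lower. DOK1 went from 1.16 to 0.280 CPM and fell by 2.05 on the log2 scale (adjusted p = 1.22e-05), and DOK7 went from 0.224 to 0.916 CPM and rose by 2.01 (adjusted p = 1.46e-04). Both are adaptors of low level here. DOK4 rose by 0.34 (adjusted p = 0.0358, but 0.112 to 0.134 without control 3, shtRF 2 or shtRF 3), and RET, a receptor that DOK5 binds, had a log2 fold change of -0.30 that did not pass the test (adjusted p = 0.0768).

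Of the teashirt genes besides TSHZ2, TSHZ1 and TSHZ3 were tested and 0 were called with edgeR, also at an unadjusted p under 0.05 and with DESeq2, with TSHZ1 at 48.9 CPM in control and 46.1 in shtRF. Of 9 BLOC-1 genes, BCAS4 included, 4 were higher (44.4%) and 0 lower, also at an unadjusted p under 0.05 with edgeR and with DESeq2. The median log2 fold change of the 9 was 0.17. BLOC1S1 rose by 0.55 on the log2 scale (adjusted p = 4.03e-06, edgeR), BLOC1S5 by 0.41, BLOC1S2 by 0.41 and DTNBP1 by 0.28. BLOC1S1 and BLOC1S5 shared 29.8% and 14.3% of their exonic bases with another gene. Genes that share the BCAS name did not share the course of BCAS1. BCAS2, a splicing factor, had a log2 fold change of -0.18 (adjusted p = 0.0858) and BCAS3 one of 0.18 (adjusted p = 0.188), and neither passed the test, although BCAS2 was called lower with upper quartile scaling and without control 1 (adjusted p = 0.0246, edgeR).

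Genes of the cells in which BCAS1 is best known went both ways or stayed near 0. Of 33 oligodendrocyte and myelin genes asked for, 29 were listed and 13 tested, with 2 higher and 4 lower and a median log2 fold change of -0.17. OLIG1, OLIG2, OPALIN and ASPA were not listed, and 10 others had no library above 4 counts. MAG, MOG and MOBP, genes of mature myelin, lay under 0.2 CPM in both groups. Other myelin genes were present, MBP at 3.11 CPM in control and 3.85 in shtRF (adjusted p = 0.0836) and CNP, which fell by 0.34 on the log2 scale, at 10.6 and 8.35 CPM (adjusted p = 0.00424). PLLP, a membrane proteolipid also found in epithelia, rose by 1.37 on the log2 scale, to 27.6 CPM (adjusted p = 8.42e-12, edgeR). Of its exonic bases 19.9% were shared with another gene. ITPR2, a calcium release channel, rose by 0.81, to 167 CPM (adjusted p = 9.80e-11, edgeR). QKI, an RNA-binding protein, fell by 0.76 on the log2 scale (adjusted p = 6.94e-09) and the transcription factor NKX2-2 by 1.06 (adjusted p = 1.49e-04). The summed level of the list ran from 182 to 192 CPM in control and from 252 to 262 CPM in shtRF, and ITPR2 and PLLP were the genes of it that rose.

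Genes named in work on the 20q13 amplicon, other than BCAS1, went both ways. Of 41 listed, 35 were tested, with 9 higher (25.7%) and 10 lower (28.6%), and the median log2 fold change was -0.01. ZNF217 had the smallest adjusted p of them. RNF114, a ubiquitin ligase, rose from 46.5 to 64.6 CPM (adjusted p = 1.02e-06) and EEF1A2, a translation elongation factor, fell from 339 to 253 CPM (adjusted p = 2.09e-06). The mitotic kinase AURKA, at 26.8 and 26.5 CPM, and the nuclear receptor coactivator NCOA3, at 80.7 and 80.2 CPM, both classical genes of the amplicon, did not pass the test.

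**Figure D4:**
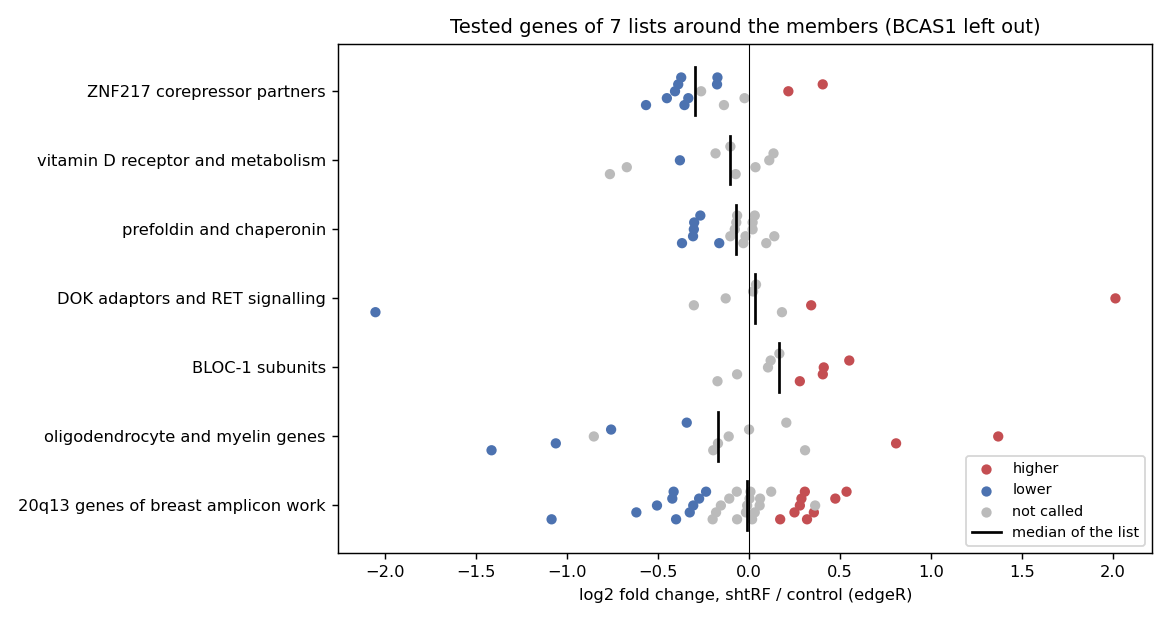
Log2 fold change of shtRF over control (x axis) of the tested genes of 7 lists (y axis), 1 point per gene, coloured by whether it was higher, lower or not called at an adjusted p of 0.05 (edgeR), with BCAS1 left out. The ZNF217 partners lie mostly below 0 (median -0.30), the BLOC-1 genes mostly above it (median 0.17), and the amplicon genes lie on both sides (median -0.01).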

How the data were processed

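Messenger RNA of 6 MDA-MB-453 libraries (3 control, 3 shtRF, grouped by sample titles) was analysed. The authors deposited raw counts per gene with exon coordinates. Per the labels, a stranded kit was used, and the submitters' processing notes name Trimmomatic 0.36, featureCounts from Subread 1.5.1, edgeR 3.12.1 and GRCh38. The aligner is not given in the sources used here. A table of RPKM values was not used here because the part at hand ends before chromosome 20. Between 74.2% and 77.1% of counts from 1 to 4 were even in each library, as when both mates are counted, so independent fragments can be fewer than counts.

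The members and gene lists were chosen with earlier results of these data known. Genes were filtered with filterByExpr (minimum count 10), scaled by TMM and tested over all 19628 genes with the quasi-likelihood test of edgeR 4.0.16 (R 4.3.3) with Benjamini-Hochberg adjustment at 0.05. CPM used TMM library sizes, and RPKM was recomputed from counts, gene length and total count. Distances run between gene edges, and exon overlap was taken from the table's coordinates with GenomicRanges 1.54.1, irrespective of strand. Named were the 7 members, tested genes within 1 Mb, genes within 10 Mb past 2-fold with a mean of at least 1 CPM, the nearest called genes, the 5 genes most like BCAS1 and up to 4 genes per list by adjusted p. KCNS1, RP3-453C12.15, KDM1A, CYP27B1, PFDN5, AURKA, NCOA3, BCAS and TSHZ genes, myelin genes past the 4 and the markers were named besides, after their values were seen. Alternatives used DESeq2 1.42.0 and limma 3.58.1 among others. The code was tested on simulated data. Replicate numbers did not pair the samples.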

Additional observations from a re-analysis of the deposited data

How the results depend on the processing

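The rise of BCAS1 kept its direction in all 14 alternatives. They reuse the contrast by which it was chosen, so this adds no support. Its log2 fold change was 3.96 to 4.21 when each library was left out in turn. It was 3.02 with limma on log2(RPKM + 1), a scale that compresses low values. Genes called higher within 1 Mb numbered 1 with no filter beyond 1 count and 0 to 1 when libraries were left out, the gene being AC005220.3. Genes called lower within 5 Mb numbered 7, of 52 tested, when only genes with under 10% exon overlap were used, an alternative chosen after seeing the data that tests fewer genes. The other counts along the chromosome stayed within 1.5 times their value. For 53 named genes besides BCAS1 and the cell identity markers, 716 of 737 values under the alternatives kept their call, 8 lost it (DOK4, DTNBP1, TFAP2C), 13 gained one (KDM1A, LRP2, BCAS2, RET) and 0 reversed. Counts of short lists moved more. Vitamin D genes numbered up to 3 lower (without control 3), DOK and RET genes 1 higher and 3 lower with upper quartile scaling, prefoldin and chaperonin genes up to 2 higher (without control 3), luminal markers 1 lower without control 1, shtRF 2 or shtRF 3, and stromal markers down to 0 higher and 1 lower.

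The share of all genes called depended on the filter, at 20.6% with none beyond 1 count and 49.2% with at least 1 CPM in 3 libraries. Leaving out libraries moved BCAS4 from -0.46 to 0.54 on the log2 scale, without a call in any.

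Replicate numbers recur in both groups, but deviations of same-numbered libraries correlated at only 0.059, 0.018 and 0.017, so the numbers were not taken to pair the samples. With a replicate block BCAS1 was at 4.06, 4123 genes were higher and 3776 lower over all, and 42 were higher and 32 lower within 10 Mb. Of the named genes, KDM1A changed its call with the block (-0.14, adjusted p = 0.047). Genes with a few counts, CYP24A1, TSHZ2 and DOK5 among them, were limited by depth.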
